A study of Saccharomyces cerevisiae with 6 samples.

Results

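The 2 arrays labelled replicate 2, 1 from each group, were compared with the 4 arrays labelled replicates 1 and 3, with the group held constant. They are 2 of the 6 arrays of the series and were singled out because they stood apart from the other arrays on the values described here. The differences between them and the other arrays are therefore given as a description, with their spread and with no p-value. The standard errors (SE) rest on few arrays and on a contrast chosen on these values, so they are likely too small. All cells were Saccharomyces cerevisiae W303-1A, a haploid laboratory strain of mating type a whose labelled mutations are a leu2 allele in leucine synthesis, his3-11,15 in histidine synthesis, trp1-1 in tryptophan synthesis, the nucleotide synthesis alleles ura3-1 and ade2-1, and can1-100 in the arginine permease. In the GAL-YRA1 group they carried pRS413::GAL-YRA1, a centromeric HIS3 plasmid on which a galactose-inducible promoter drives the intron-bearing YRA1 gene. GAL-YRA1Δi cells carried the same plasmid with the intron-less gene, which overexpresses this mRNA export adaptor, so both groups held a galactose-driven copy of YRA1 beside the chromosomal gene. Each group had 3 arrays, labelled as biological replicates, of cells grown in minimal medium with raffinose and moved to 2% galactose for 4 hours. The labels give no day, culture batch or hybridisation batch for a replicate number.

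Budding yeast grown in minimal medium tunes its genes to the nutrients left around it. Phosphate transporters and phosphatases are induced by Pho4 when phosphate runs low, iron uptake genes by Aft1 when iron runs low, and genes for using non-fermentable carbon are repressed by glucose and derepressed through Snf1, Adr1 and Cat8. Mitochondrial biogenesis, vitamin synthesis and the basal output of the pheromone pathway also vary with growth phase and medium.

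YRA1 followed the labels on every array. Its signal, in log2 units of the normalised array values, was 13.36, 13.22 and 13.44 in GAL-YRA1 replicates 1, 2 and 3, and 14.48, 14.62 and 14.50 in GAL-YRA1Δi. The groups did not overlap, and the replicate 2 arrays differed from the others by -0.03 ± 0.10 (log2, SE). The galactose genes GAL1, a galactokinase, GAL7 and GAL10 differed by between -0.04 and -0.01 on the log2 scale, and none of the 12 measured genes of the galactose regulon passed the rule for a called difference given below. GAL1 lay between 14.63 and 14.77 on all 6 arrays, and TDH3, which encodes the main glycolytic glyceraldehyde-3-phosphate dehydrogenase, between 15.08 and 15.12. ACT1, which encodes actin, differed by -0.01 ± 0.03. All of these genes, and YRA1 in GAL-YRA1Δi, lie near the top of the scale at 15.12, where differences can be compressed, so small values there do not show that the transcripts were equal. The mean differences of both plasmid genes hide opposite signs: YRA1 differed by -0.18 in GAL-YRA1 and 0.13 in GAL-YRA1Δi, and HIS3, the plasmid's marker, by -0.11 and 0.30, with a mean of 0.10 ± 0.12. Neither inequality passed the interaction test described below (adjusted p = 0.465 and 0.380 in limma).

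The replicate 2 arrays stood apart in both groups. Within GAL-YRA1, 57 of 5498 S. cerevisiae probe sets differed by at least 1.5-fold between replicates 1 and 3, while 369 did between replicates 2 and 1 and also 369 between replicates 2 and 3. Within GAL-YRA1Δi the corresponding numbers were 10, 471 and 439. Of the variance over all tested probe sets, 46.7% lay between replicate 2 and the other replicates, 35.8% between the groups, 8.66% in the product of both and 8.83% between replicates 1 and 3 within groups. The replicate 2 differences in GAL-YRA1 and in GAL-YRA1Δi correlated with r = 0.69 across 5498 probe sets, which are not independent replicates. These differences share no array, but replicate 2 was singled out on the same values, so r is a description and no separate support.

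A probe set was called where the mean difference was at least 1.5-fold and the replicate 2 array lay above both, or below both, of the other arrays of its group, the same way in both groups. By this rule 301 probe sets were called, 5.47% of those tested, with 145 higher (2.64%) and 156 lower (2.84%) on the replicate 2 arrays. Counted without the fold, 1752 probe sets (31.9%) lay above and 1783 (32.4%) below the other arrays in both groups. At least 2-fold were 30 higher (0.546%) and 29 lower (0.527%). With 1 probe set for each gene, 144 of 5449 genes were called higher (2.64%) and 155 lower (2.84%), and the counts for gene lists below are to be read against these shares. In bulk RNA, fewer cells of a kind and less RNA in each cell cannot be told apart.

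Genes of carbon use stood among those with the largest increases on the replicate 2 arrays. RGI2, a protein of energy metabolism under respiratory growth, had signals of 7.85, 10.49 and 8.22 in GAL-YRA1 replicates 1, 2 and 3, and 8.62, 10.56 and 8.31 in GAL-YRA1Δi. Both replicate 2 arrays were high and nearly equal, and the mean difference was 2.27 ± 0.20 (log2, SE), or 4.83-fold. FBP1, which encodes fructose-1,6-bisphosphatase of gluconeogenesis, had signals of 7.53, 10.28 and 7.89 in GAL-YRA1 and 8.35, 9.29 and 7.998 in GAL-YRA1Δi. It was higher on both replicate 2 arrays, by 2.58 in GAL-YRA1 and 1.12 in GAL-YRA1Δi. The formate dehydrogenase gene FDH1 was at 8.74, 10.88 and 7.54 in GAL-YRA1 and 8.35, 9.86 and 8.57 in GAL-YRA1Δi, a mean difference of 2.07 ± 0.58. HXT2, a high-affinity glucose transporter, was at 8.50, 11.72 and 10.15 in GAL-YRA1 and 10.84, 11.65 and 10.19 in GAL-YRA1Δi. Its replicates 1 and 3 already differed by over 1.5 on the log2 scale in GAL-YRA1, so that its mean difference of 1.77 had an SE of 0.72. ADH2, the glucose-repressed alcohol dehydrogenase that oxidises ethanol, differed by 1.35 ± 0.48 and REG2, a regulatory subunit of the Glc7 phosphatase, by 1.25 ± 0.09.

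**Figure D1:**
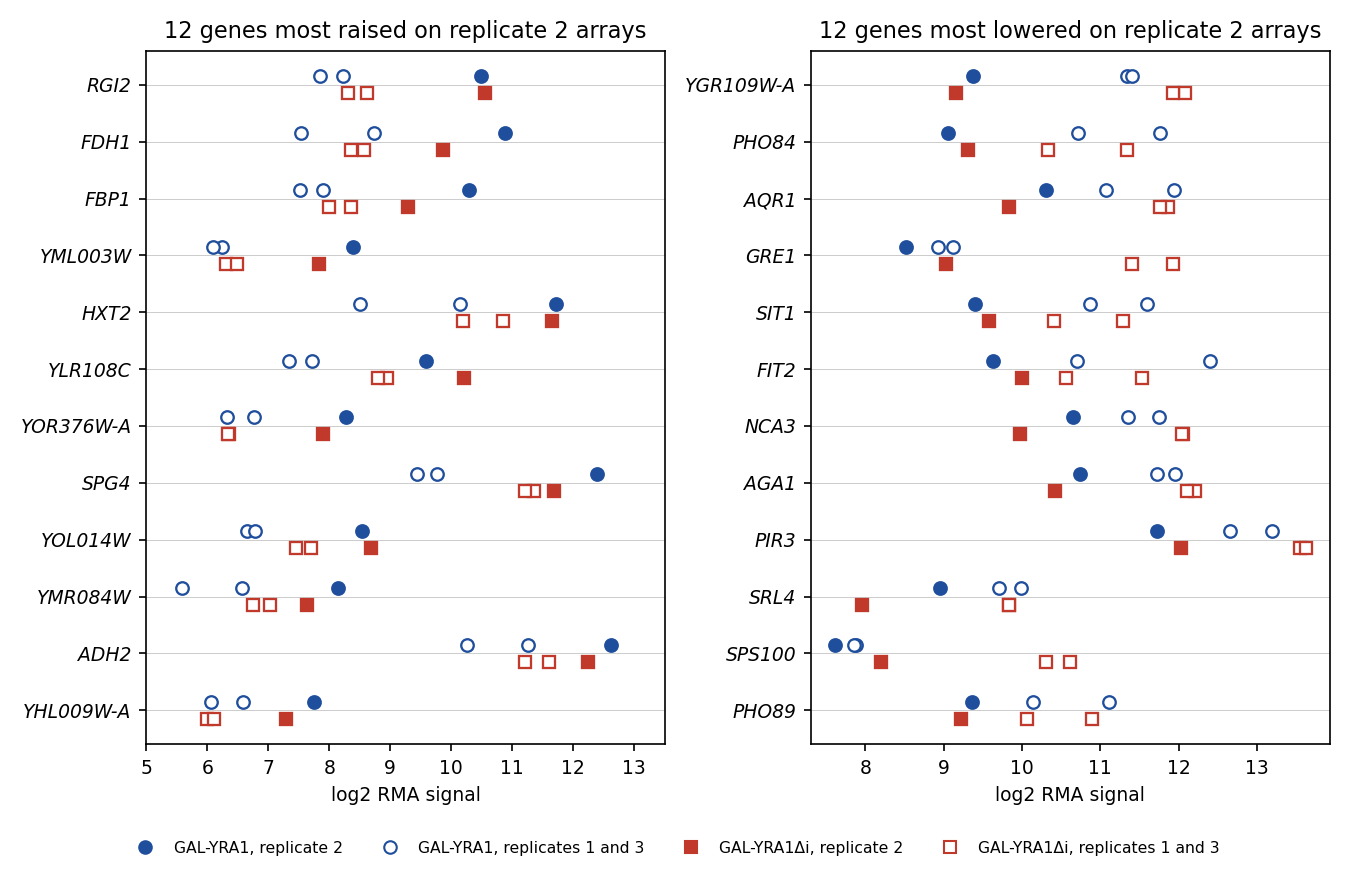
Log2 signal on each of the 6 arrays for the 12 genes lying furthest above and the 12 furthest below on the replicate 2 arrays (filled symbols: replicate 2; open symbols: replicates 1 and 3; circles: GAL-YRA1; squares: GAL-YRA1Δi). In each row the filled symbol lies beyond both open symbols of its group, as the rule requires; the widest distance is that of YGR109W-A, at -2.42 on the log2 scale.

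Of 33 measured glucose-repressed and gluconeogenic genes, 9 were called higher and 1 lower (27.3% and 3.03%), with a median difference of 0.21 beside -0.00 over all genes. The median was 0.39 in GAL-YRA1 and 0.06 in GAL-YRA1Δi. The list did not move as one: FBP1, ADH2, FDH1 and REG2 were called, whereas ICL1, the isocitrate lyase of the glyoxylate cycle, differed by 0.31 in GAL-YRA1 and -0.58 in GAL-YRA1Δi. Of 24 genes of peroxisomes and fatty acid oxidation 3 were called higher and none lower, with medians of 0.36 in GAL-YRA1 and 0.06 in GAL-YRA1Δi. The 3 were PCS60, an oxalyl-CoA synthetase, at 0.72 ± 0.09, PXA1, a subunit of the peroxisomal fatty acid transporter, at 0.64 ± 0.13, and ECI1, an enoyl-CoA isomerase, at 0.63 ± 0.07. Of 25 genes of glycolysis and fermentation none was called, and their median was -0.01.

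Most genes for building mitochondria were higher, and the mitochondrial ribosomal protein genes showed little scatter. All 69 measured mitochondrial ribosomal protein genes were higher on the replicate 2 arrays, 68 of them beyond both other arrays in both groups against 31.9% of all probe sets, and 16 were called (23.2%). Their median difference was 0.44, and it was 0.32 in GAL-YRA1 and 0.57 in GAL-YRA1Δi, while the median between replicates 1 and 3 was -0.05 and 0.01. MRPL32, a protein of the large mitochondrial subunit, was at 12.47, 13.37 and 12.66 in GAL-YRA1 and 12.24, 13.09 and 12.18 in GAL-YRA1Δi. Both replicate 2 arrays stood above all 4 others, and the mean difference was 0.84 ± 0.07. MRP21 and MRP2 of the small subunit both differed by 0.79, and MRPL50 by 0.72 ± 0.12. The cytosolic ribosomal protein genes were unlike these: of 127 measured, 1 was called, and their median was 0.02.

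Assembly factors of the respiratory complexes, a list put together after the values had been seen, showed 12 of 38 called higher, none called lower, and a median of 0.43. They scattered from -0.41 to 1.08, and 4 of them lay lower. COX17, the copper chaperone of cytochrome c oxidase, was at 12.60, 13.60 and 12.72 in GAL-YRA1 and 12.09, 13.23 and 12.23 in GAL-YRA1Δi, a difference of 1.00 ± 0.07. PET117 and COA4, further factors of cytochrome c oxidase assembly, differed by 1.08 ± 0.18 and 1.06 ± 0.16, and FMC1, needed to assemble the ATP synthase at high temperature, by 0.97 ± 0.10. A respiratory chain list showed smaller differences. It holds subunits of the complexes and also other genes, such as the regulators HAP2, HAP3, HAP4 and HAP5. All 42 measured respiratory chain genes were higher, 39 of them separated in both groups, with a median of 0.16 and 1 called, and of 22 genes of the tricarboxylic acid cycle none was called, with a median of 0.11. Of 31 genes of mitochondrial protein import, also listed after the values had been seen, 2 were called higher and 3 lay lower, with a median of 0.26. The 2 called were TIM8 at 0.69 ± 0.08 and TIM9 at 0.62 ± 0.07, which encode small chaperones of the intermembrane space. The 18 genes encoded in the mitochondrial genome were not analysed here.

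**Figure D2:**
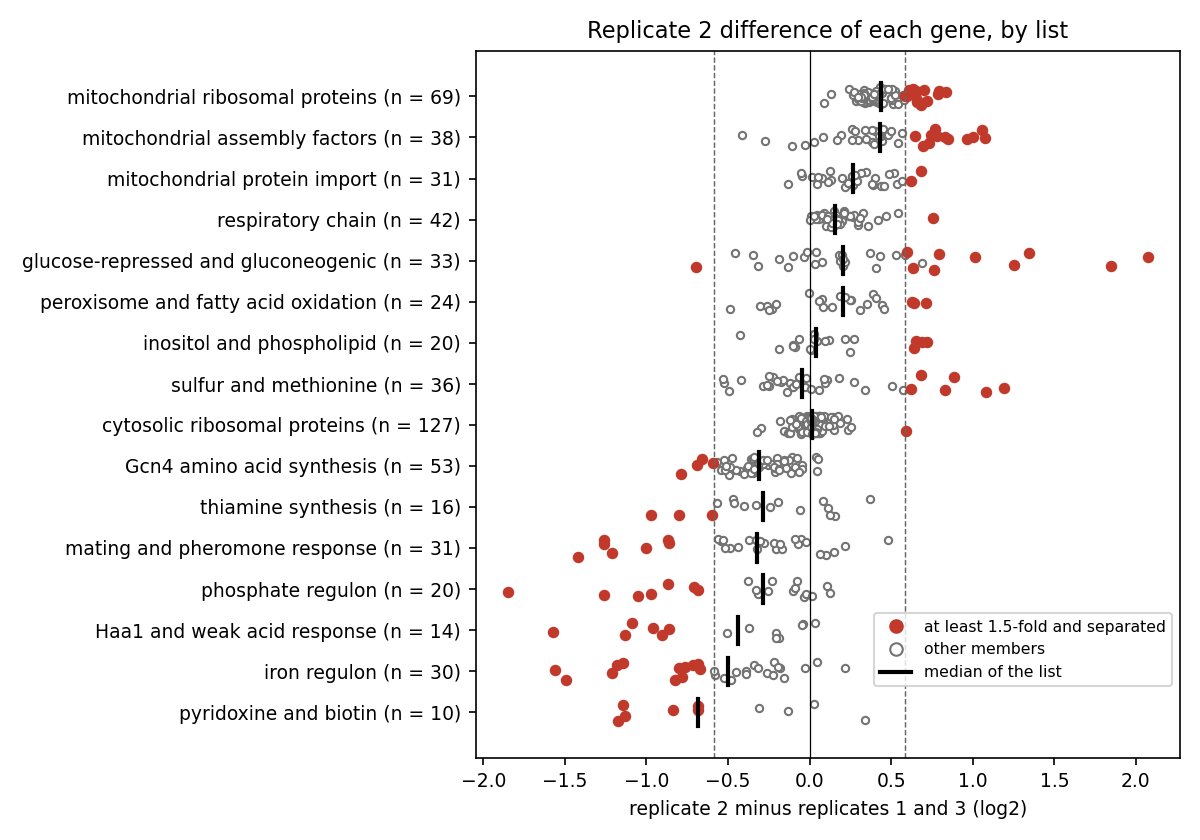
Difference of the replicate 2 arrays from the others on the log2 scale for each gene of 16 lists, with the list's median as a bar, called genes filled in red and dashed lines at 1.5-fold in either direction. The mitochondrial ribosomal proteins form a narrow group around 0.44 and the iron regulon a wide one around -0.50, while the cytosolic ribosomal proteins centre on 0.02; the mitochondrial assembly, mitochondrial import and Haa1 lists were compiled after the values had been seen.

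Sulfur and phospholipid genes were divided. Of 36 sulfur and methionine genes 6 were called higher (16.7%) and none lower, yet the list's median was -0.05, as 20 members lay lower. MHT1, the S-methylmethionine-homocysteine methyltransferase, was at 9.60, 10.53 and 9.64 in GAL-YRA1 and 9.33, 10.78 and 9.27 in GAL-YRA1Δi, both replicate 2 arrays standing above the 4 others, and differed by 1.19 ± 0.17. MET2, the homoserine acetyltransferase, differed by 1.08 ± 0.15, SUL2, a sulfate permease, by 0.89 ± 0.04, and MET32, a zinc finger regulator of these genes, by 0.83 ± 0.12. Of 20 inositol and phospholipid genes 4 were called higher and none lower, with a median of 0.04. INO1, the inositol-3-phosphate synthase, was at 13.11, 13.81 and 12.99 in GAL-YRA1 and 12.79, 13.44 and 12.73 in GAL-YRA1Δi. It differed by 0.72 ± 0.05, and INO4 and INO2, the pair of activators that act on it, by 0.69 ± 0.04 and 0.64 ± 0.01, with the choline kinase gene CKI1 at 0.65 ± 0.10.

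The gene furthest below on the replicate 2 arrays was YGR109W-A, the Gag open reading frame of a Ty3 retrotransposon. Its signals were 11.35, 9.38 and 11.40 in GAL-YRA1 and 12.08, 9.15 and 11.93 in GAL-YRA1Δi, so that both replicate 2 arrays were far below the 4 others, and the mean difference was -2.42 ± 0.25. The overlapping reading frame of the same element, YGR109W-B, was also called lower, at -0.62. Copies of a retrotransposon are near-identical and may share signal, so the values cannot be given to 1 copy.

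Genes of the phosphate and iron regulons were among those called lower. PHO84, the high-affinity phosphate transporter, was at 10.71, 9.06 and 11.76 in GAL-YRA1 and 11.34, 9.31 and 10.33 in GAL-YRA1Δi. Both replicate 2 arrays were the lowest of their group, but replicates 1 and 3 also differed by about 1 unit, in opposite directions in the 2 groups, so the mean difference of -1.85 had an SE of 0.55. Of 20 measured genes of the phosphate regulon 7 were called lower (35%) and none higher, with a median of -0.28. Besides PHO84 they held PHO89, a sodium-coupled phosphate transporter, at -1.26 ± 0.46, and SPL2, a regulator of low-affinity transport, at -1.05 ± 0.44. PHO3, an acid phosphatase that stands in both this list and the thiamine list, was at -0.97 ± 0.09. The polyphosphate synthesis genes of the same list differed little: VTC1, VTC2, VTC3 and VTC4 lay between -0.09 and 0.13.

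Of the 30 genes of the iron regulon 12 were called lower (40%) and none higher. Their median was -0.50, with -0.59 in GAL-YRA1 and -0.40 in GAL-YRA1Δi. SIT1, a siderophore transporter, was at 11.60, 9.40 and 10.87 in GAL-YRA1 and 10.41, 9.57 and 11.29 in GAL-YRA1Δi. FIT2, a cell wall mannoprotein that holds siderophores, was at 12.41, 9.62 and 10.71 in GAL-YRA1 and 10.57, 10.01 and 11.54 in GAL-YRA1Δi. In both genes replicate 2 was lowest in each group, while replicate 1 was above replicate 3 in GAL-YRA1 and below it in GAL-YRA1Δi. Their mean differences were -1.56 ± 0.43 and -1.49 ± 0.74. The multicopper oxidase gene FET3 differed by -1.18 ± 0.35 and TIS11, which encodes an mRNA-binding protein that lowers iron-consuming transcripts, by -1.21 ± 0.74. Over the whole list the median of replicate 1 minus replicate 3 was 0.21 in GAL-YRA1 and -0.17 in GAL-YRA1Δi. Of 15 copper and zinc genes 2 were called lower, the zinc transporters ZRT1 at -0.95 ± 0.07 and ZRT2 at -0.74 ± 0.04.

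Vitamin genes were lower as well. Of 10 genes of pyridoxine and biotin metabolism 6 were called lower and none higher, with a median of -0.69. BIO3, BIO4 and BIO5, which sit side by side and act in biotin synthesis and precursor uptake, were all called, and BIO3 was at 10.69, 9.91 and 11.02 in GAL-YRA1 and 11.30, 9.84 and 11.20 in GAL-YRA1Δi. Its mean difference was -1.18 ± 0.18, that of BIO5 was -1.14 ± 0.33, and the neighbouring pyridoxine genes SNO1 and SNZ1 differed by -1.13 ± 0.24 and -0.84 ± 0.21. BIO5 and the biotin transporter gene VHT1 also belong to the iron list. BIO2, the biotin synthase, went the other way at 0.34 and was not called. Of 16 thiamine genes 3 were called lower, with a median of -0.29. They were THI7, THI21 and PHO3, the last of which is also counted in the phosphate regulon. The thiamine transporter THI7 differed by -0.80 ± 0.06.

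Amino acid synthesis was lower by small but regular amounts. Of 53 measured targets of Gcn4, the activator of amino acid biosynthesis, 50 lay lower, 46 of them separated in both groups against 32.4% of all probe sets, with a median of -0.31 and 4 called. LYS20, the homocitrate synthase of lysine synthesis, was at 13.21, 12.79 and 13.41 in GAL-YRA1 and 13.45, 12.36 and 13.39 in GAL-YRA1Δi, below the others in both groups, with a difference of -0.79 ± 0.18. HIS7, an enzyme of histidine synthesis, differed by -0.66 ± 0.09 and ARG7, which acts in ornithine synthesis, by -0.69 ± 0.12. All 10 genes of a lysine list lay lower, with 2 called. Most of that list, with the 2 called genes LYS20 and LYS1, also belongs to the Gcn4 list and is counted there. Of 18 amino acid permease genes under the SPS sensor 17 lay lower, with a median of -0.24 and none called. Of 69 ribosome biogenesis genes 62 lay lower, with a median of -0.14 and none called.

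Mating genes were lower too. Of 31 measured genes of mating and pheromone response 7 were called lower (22.6%) and none higher, with a median of -0.16 in GAL-YRA1 and -0.45 in GAL-YRA1Δi. AGA1, the anchor subunit of the a-agglutinin, was at 11.96, 10.74 and 11.72 in GAL-YRA1 and 12.20, 10.42 and 12.10 in GAL-YRA1Δi. Both replicate 2 arrays stood below the 4 others, and the difference was -1.42 ± 0.21. PRM1 and FIG1, which act in cell fusion and in calcium uptake during mating, differed by -1.26 ± 0.36 and -1.21 ± 0.31, and PRM6 by -1.26 ± 0.66, of which -0.16 in GAL-YRA1 and -2.36 in GAL-YRA1Δi. The receptor gene STE2 lay at 13.49 and 13.29 on the replicate 2 arrays and between 13.83 and 13.95 on the others, a difference of -0.49 that was not called.

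The labelled mating type was read from marker genes. Of the a-cell markers MFA1, MFA2, STE2, STE6 and AGA2 were above 11.77 on every array, while BAR1, the a-cell protease, lay between 3.14 and 3.47 although the labelled genotype lists no bar1 mutation. Both that range and the next one sit under 4.70, the value that 95% of the probe sets taken as S. pombe do not exceed. Of the alpha-cell markers HMLALPHA1, which encodes the alpha1 activator, lay between 3.70 and 4.02. MF(ALPHA)1, which encodes the alpha-factor precursor, was at 9.01, 7.74 and 8.57 in GAL-YRA1 and 7.72, 6.61 and 7.82 in GAL-YRA1Δi, and was called lower at -1.11 ± 0.16. The other alpha-cell markers MF(ALPHA)2, STE3 and SAG1 differed by between -0.40 and -0.01 and were not called. Thus 1 of the 5 measured alpha and diploid markers was called. SAG1 lay between 9.91 and 10.48, STE3 between 7.93 and 8.67 and MF(ALPHA)2 between 6.35 and 6.58. Like MF(ALPHA)1, they were above 4.70 on every array, so most alpha-cell markers were not at background. Whether alpha cells had a part in the mating genes' difference was not tested.

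Stress and weak acid genes were mixed. AQR1, a transporter that exports short-chain acids, was at 11.08, 10.31 and 11.94 in GAL-YRA1 and 11.87, 9.84 and 11.77 in GAL-YRA1Δi, a difference of -1.59 ± 0.38. A list of targets of Haa1 and of the weak acid response, put together after the values had been seen, had 6 of 14 called lower and a median of -0.44, among them PDR12, an exporter of weak acids, at -1.13 ± 0.31, YRO2 at -0.96 ± 0.16 and the polyamine exporter TPO2 at -0.86 ± 0.11. A further probe set for TPO2 was also called, at -1.57 ± 0.22. GRE1, a hydrophilin of stressed cells, was at 8.93, 8.52 and 9.12 in GAL-YRA1 and 11.93, 9.03 and 11.41 in GAL-YRA1Δi, so that its difference was -0.51 in one group and -2.63 in the other. SPG4, needed for survival in stationary phase, did the reverse, at 9.44, 12.38 and 9.77 in GAL-YRA1 and 11.36, 11.68 and 11.21 in GAL-YRA1Δi, or 2.78 and 0.39. Among 42 general stress genes, targets of Msn2 and Msn4, 4 were called higher and 2 lower, with a median of 0.06. That median was 0.13 in GAL-YRA1 and -0.12 in GAL-YRA1Δi. The list difference between the groups was not tested.

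Smaller groups filled out the lower side. Of the 22 measured genes of a hypoxic and seripauperin list 20 lay lower and 3 were called, with a median of -0.30, and outside the list the seripauperin genes PAU14 and PAU8 were also called lower, at -0.78 and -0.73. Within it, the sterol uptake regulator gene SUT1 was at 11.58, 10.69 and 11.67 in GAL-YRA1 and 11.51, 10.56 and 11.59 in GAL-YRA1Δi and differed by -0.96 ± 0.05, while the cell wall mannoprotein TIR1 and PAU24 both differed by -0.61 ± 0.12. The probe sets of PAU14, PAU8 and PAU24 are marked as ones that may pick up similar sequences, so their values may not belong to 1 gene each. Of 33 cell wall integrity genes 30 lay lower and 2 were called. PIR3, a cell wall protein of the same list, was at 13.19, 11.73 and 12.66 in GAL-YRA1 and 13.56, 12.03 and 13.63 in GAL-YRA1Δi, both replicate 2 arrays lying below the 4 others, and differed by -1.38 ± 0.22. Of the 45 genes of a meiosis and sporulation list 4 were called lower and none higher, with a median of -0.10, whereas outside the list the spore wall genes OSW1 and OSW2 and the meiotic gene CSM4 were called higher, at 0.77, 0.93 and 1.14. SPS100, a spore wall protein, was among the 4 called lower. Its signals were 7.89, 7.61 and 7.85 in GAL-YRA1 and 10.62, 8.19 and 10.30 in GAL-YRA1Δi. Nearly the whole of its difference of -1.26 ± 0.59 thus came from GAL-YRA1Δi. SPO21, a component of the meiotic spindle pole, was lower in both groups and differed by -0.74 ± 0.06. Of 29 oxidative stress genes 3 were called lower and none higher, with a median of 0.09: the multidrug transporter ATR1 at -0.76 ± 0.10 and the aryl-alcohol dehydrogenase genes AAD10 and AAD6 at -0.69 ± 0.16 and -0.59 ± 0.25.

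On the higher side, several of the furthest genes are little described. YML003W was at 6.25, 8.39 and 6.10 in GAL-YRA1 and 6.31, 7.84 and 6.49 in GAL-YRA1Δi, and YLR108C at 7.72, 9.58 and 7.33 in GAL-YRA1 and 8.95, 10.21 and 8.80 in GAL-YRA1Δi. In both the replicate 2 array was clearly above its group, with differences of 1.83 ± 0.24 and 1.70 ± 0.25. YOR376W-A, YOL014W and YMR084W differed by between 1.42 and 1.63. YHL009W-A, the Gag reading frame of a Ty4 retrotransposon, was at 6.59, 7.75 and 6.06 in GAL-YRA1 and 6.003, 7.29 and 6.11 in GAL-YRA1Δi. It was thus higher on both replicate 2 arrays, by 1.33 ± 0.20, the opposite direction to the Ty3 Gag frame YGR109W-A, while the longer Ty4 frame YHL009W-B differed by -0.24 and was not called. Of 34 proteasome genes 31 lay higher, 26 of them separated, with a median of 0.11 and none called. Of 21 trehalose and glycogen genes 18 lay higher and 1 was called, with a median of 0.19, but here replicate 1 minus replicate 3 had a median of 0.36 in GAL-YRA1 and -0.11 in GAL-YRA1Δi. Of 29 mRNA export and mRNP factors, the class to which Yra1 belongs, 1 was called and the median was 0.03.

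Beyond the lists, called genes shared some features. Of the genes called lower 15.5% (24) lay within 30 kb of a chromosome end, as did 6.94% (10) of those called higher and 5.54% of all 5449 genes. The median gene length was 804 bp for genes called higher, 1062 bp for those called lower and 1236 bp for all. Their median signals were 10.6 and 10.4, beside 11.2 for all genes. Next to each other on a chromosome lay 27 pairs of called genes, 21 of them called in the same direction. Among them were FIT2 and FIT3, MHT1 and MMP1, PHO3 and PHO5, and the overlapping frames YGR109W-A and YGR109W-B of 1 element. The number of pairs to be met among equally many genes picked at random was not worked out, so the pairs are not shown to be a shared feature. Of the annotated probe sets that matched no single S. cerevisiae gene, taken here as S. pombe, none of 1747 was called.

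**Figure D3:**
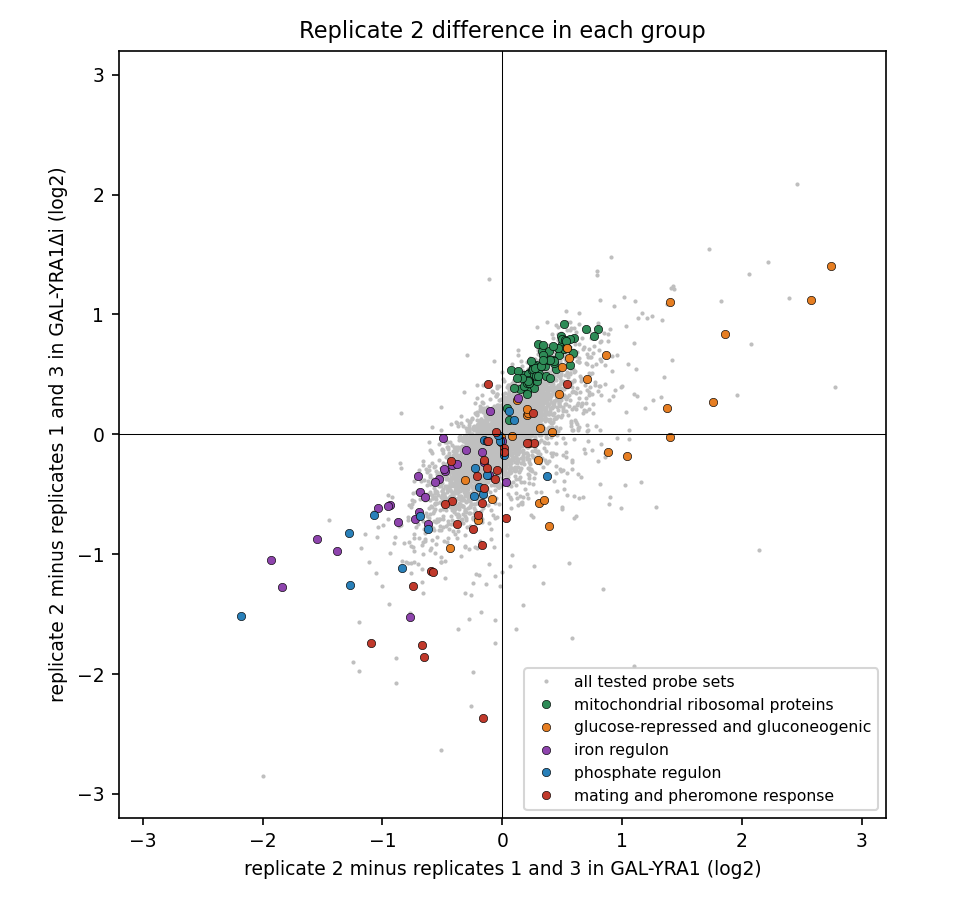
Difference of replicate 2 from replicates 1 and 3 on the log2 scale in GAL-YRA1 (horizontal) and in GAL-YRA1Δi (vertical) for 5498 probe sets in grey, with the genes of 5 lists in colour. Mitochondrial ribosomal protein genes lie in the upper right quadrant, with medians of 0.32 and 0.57, and most iron genes in the lower left, whereas glucose-repressed genes spread along the horizontal axis (medians 0.39 and 0.06) and mating genes along the vertical one (medians -0.16 and -0.45).

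Whether the replicate 2 difference was unequal in the 2 groups was tested with the interaction term of limma over all probe sets, with 2 residual degrees of freedom. Each arm of this test is a single replicate 2 array, and the error comes from replicates 1 and 3 alone, so the spread among cultures like replicate 2 is not in it. The replicate 2 term was also chosen on these same values, which lowers the residual spread, so the p-values of this test and of the next are too small. Results with the replicate number as a block, here and below, rest on a pairing of replicates 1 and 3 that the array values do not bear out. Of 5498 probe sets 2 (0.0364%) passed an adjusted p below 0.05 and 523 an unadjusted p below 0.05. With the replicate number as a block 33 passed, all with a lower replicate 2 difference in GAL-YRA1Δi. SPO19, a meiosis-specific protein of the prospore, was at 4.82, 6.96 and 4.82 in GAL-YRA1 and 8.48, 7.49 and 8.42 in GAL-YRA1Δi. Replicate 2 was thus high in GAL-YRA1 and low in GAL-YRA1Δi, and the 2 differences were -3.11 ± 0.09 apart (adjusted p = 0.00599 in limma, 0.000881 with the block). LSO1, a small protein with a role in iron-poor cells, was at 3.96, 4.97 and 3.77 in GAL-YRA1 and 7.14, 5.18 and 7.09 in GAL-YRA1Δi, -3.04 ± 0.14 apart (adjusted p = 0.0236 in limma, 0.000881 with the block). In GAL-YRA1 replicates 1 and 3 both genes lie near or below the S. pombe level of 4.70, where signal is close to background. SSA3, a heat-inducible chaperone, was the next in order, at 10.20, 9.90 and 10.09 in GAL-YRA1 and 12.68, 10.72 and 12.72 in GAL-YRA1Δi (adjusted p = 0.0578 in limma, 0.0102 with the block). In all 3 genes the replicate 2 arrays of the groups lay closer together than the other arrays did.

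**Figure D4:**
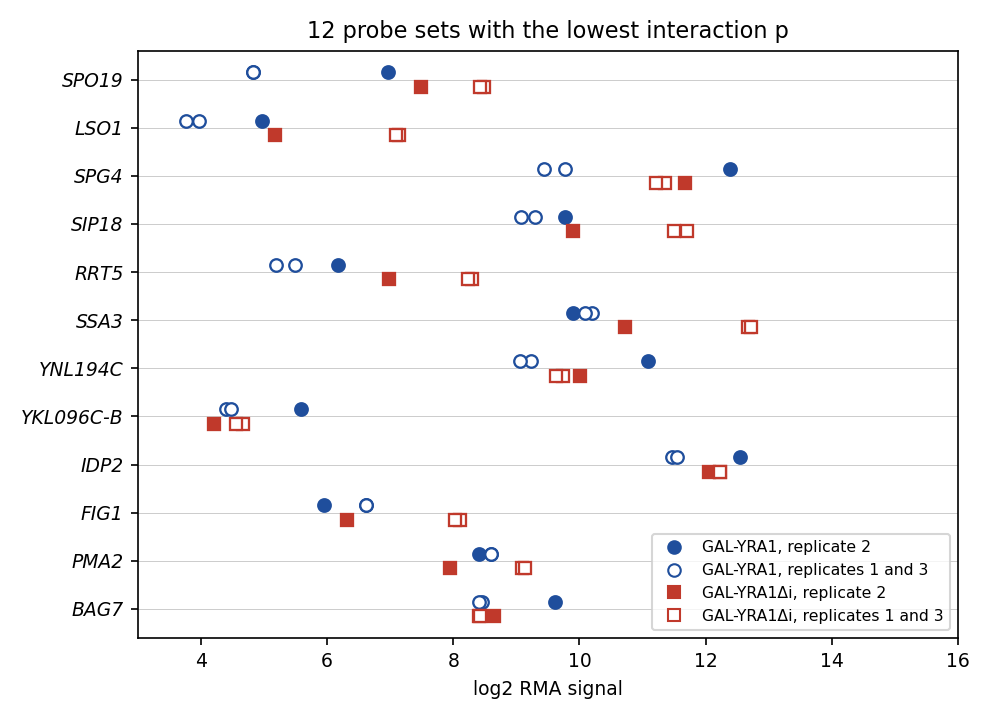
Log2 signal on each of the 6 arrays for the 12 probe sets with the lowest interaction p (filled symbols: replicate 2; open symbols: replicates 1 and 3; circles: GAL-YRA1; squares: GAL-YRA1Δi). In SPO19 and LSO1 the filled circle lies above the open circles and the filled square below the open squares, with interactions of -3.11 and -3.04 on the log2 scale.

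The comparison of the groups changed with the treatment of replicate 2. With group alone, no probe set passed an adjusted p below 0.01 in limma with at least 1.5-fold, and 885 had an unadjusted p below 0.05. With replicate 2 as a covariate 51 passed (0.928%), 35 higher and 16 lower in GAL-YRA1Δi, and with the replicate number as a block none did, with 1403 at an unadjusted p below 0.05. At an adjusted p below 0.05 the counts were 22 with group alone, 136 with the covariate (2.47%) and 79 with the block. YRA1 itself was higher in GAL-YRA1Δi by 1.20 ± 0.08 (log2, SE), with an adjusted p of 0.00482 in limma with the covariate, 0.0102 with group alone and 0.0259 with the block. Of the 301 probe sets called for replicate 2, 12 were among the 51 and 28 among the 136. The strict count rests on single arrays. It was 89 when either replicate 2 array was left out, 1 when GAL-YRA1 replicate 3 was, and 0 when any of the other arrays was. Leaving out either replicate 2 array gives the same fit, as the covariate takes up the other one and only replicates 1 and 3 are compared.

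Control probe sets of the array were read beside these results. The 5′ probe set of the 25S rRNA was at 11.95, 13.04 and 12.004 in GAL-YRA1 and 11.87, 13.39 and 11.75 in GAL-YRA1Δi, a difference of 1.32, and the middle one differed by 1.08, while the 3′ one differed by -0.29. The 3′ minus 5′ signal of the 25S rRNA was thus 0.766 and 0.778 on the replicate 2 arrays and between 2.07 and 2.59 on the others. In the 18S rRNA the 5′, middle and 3′ regions differed by 0.28, 0.37 and 0.48, the last as 0.21 in GAL-YRA1 and 0.75 in GAL-YRA1Δi. The 5.8S rRNA went the other way at -0.45, as -0.92 in GAL-YRA1 and 0.01 in GAL-YRA1Δi. The messenger RNA controls were unlike the 25S rRNA: for ACT1, SPT15, SRB4, EAF5, RIP1, WBP1, TDH1 and URA3 the 3′ minus 5′ signal differed by between 0.03 and 0.24, with the same sign in all 8 and the largest values in SRB4 (0.24), WBP1 (0.17) and URA3 (0.13). The spiked bacterial and phage controls bioB, bioC, bioD and cre differed by between 0.05 and 0.14. The part of rRNA carry-over, labelling or RNA quality in the gene differences was not tested.

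**Figure D5:**
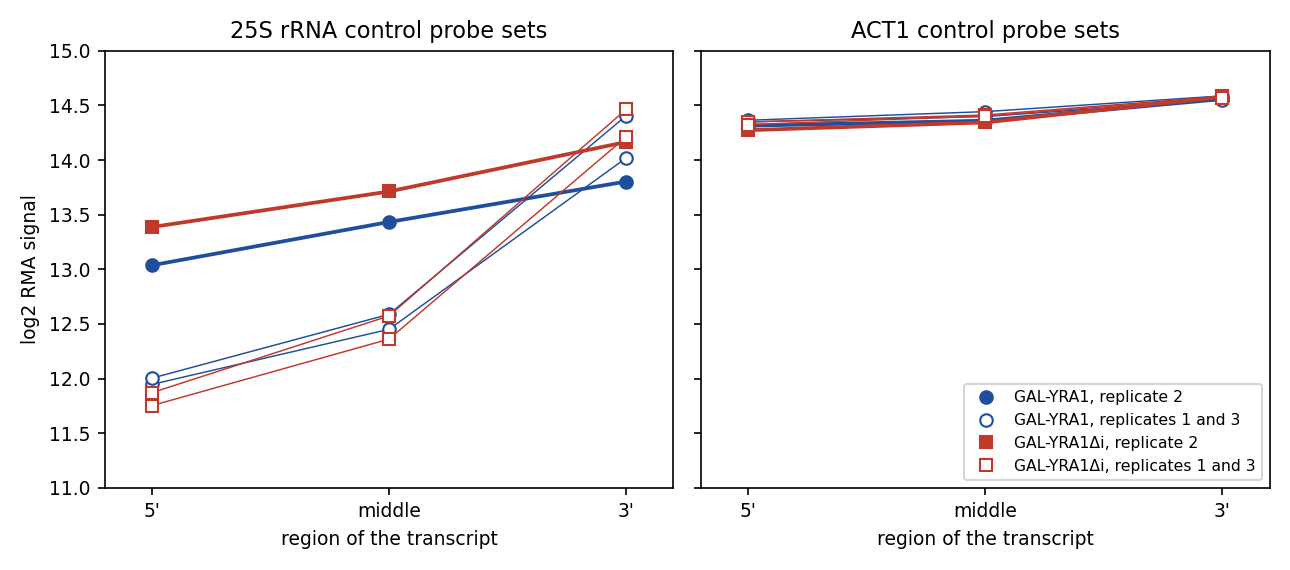
Log2 signal of the 5′, middle and 3′ control probe sets of the 25S rRNA (left) and of ACT1 (right), with 1 line per array (filled symbols and thick lines: replicate 2). The replicate 2 arrays stand above the others at the 5′ end and middle of the 25S rRNA, by 1.32 and 1.08, and not at its 3′ end, while the ACT1 lines of all 6 arrays run together; ACT1 is 1 of the messenger RNA controls with the smallest shift in 3′ minus 5′ signal (0.05, against 0.24 for SRB4).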

How the data were processed

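Biotin-labelled cRNA of 6 total RNA samples was run on Affymetrix Yeast Genome 2.0 arrays, which have 1 colour. The authors deposited 1 table of log2 values for 10928 probe sets, made by RMA, which subtracts background, quantile-normalises the arrays and summarises probes, which hides any shift common to most genes. Software versions and the genome build are not given in the sources used here, and columns mapped to no sample numbered 0. Values ran from 2.43 to 15.12, and array medians over tested probe sets from 11.16 to 11.18. Precision is limited by the number of arrays.

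Gene names came from the platform annotation and RefSeq's R64 gene table, the latter used for names, gene length and distance to chromosome ends only. Of 7245 annotated probe sets 5498 matched 1 S. cerevisiae gene each, 5449 genes in all, 47 with several probe sets, of which the brightest stands for the gene. The other 1747 annotated probe sets were taken as S. pombe because they matched no single S. cerevisiae gene. They, 213 control and 3470 unnamed probe sets were left out of the fits.

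Linear models were fitted with limma 3.58.1 in R 4.3.3 and p-values adjusted by Benjamini-Hochberg over all 5498 probe sets, two-sided. The SE of a replicate 2 difference comes from the fit with 3 residual degrees of freedom, without moderation. Choosing the replicate 2 term on the same values lowers the residual spread, so these SEs are likely too small. With so few degrees of freedom a very small SE, such as 0.01 for INO2, does not show high precision. The scripts were tested on simulated data. The members and the 51 gene lists were chosen with earlier results of these data known, and 3 lists were added after values were seen. Some genes stand in several lists, so the counts of different lists are not independent. Named genes are the 12 largest rises and falls, the 4 members with the largest difference of lists with at least 3 called or a median of at least 0.2 in size, 8 fixed controls and the 5 lowest interaction p. Others (ICL1, BIO2, YGR109W-B, YHL009W-B, PAU8, PAU14, OSW1, OSW2, CSM4, the VTC genes, mating-type markers, neighbours and BIO4 and VHT1) were named after their values were seen. Same-numbered arrays of the groups deviated together from their group means (correlations 0.34, 0.69 and 0.30 for numbers 1, 2 and 3). The numbers were treated as pairs because each is above 0.1. A replicate 2 difference shared by the groups by itself makes the correlations of numbers 1 and 3 positive, so that rule could hardly fail. Only number 2 correlated best with its own number: replicate 1 of GAL-YRA1 with 3 of GAL-YRA1Δi gave 0.66 and 3 with 1 gave 0.58. These values thus give no support for pairing numbers 1 and 3, nor for the blocked results that use it. Nothing beyond the word biological in the labels says that replicates were separate cultures. If they were not, p-values measure technical spread only.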

Additional observations from a re-analysis of the deposited data

Results flagged for a closer look

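The replicate 2 difference was -3.11 apart between the groups for SPO19 and -3.04 for LSO1 (log2, GAL-YRA1Δi minus GAL-YRA1), with adjusted p = 0.00599 and 0.0236 for the interaction in limma. These p-values are too small: each arm is 1 replicate 2 array, the error comes from replicates 1 and 3 alone, and the term was chosen on the same values. Outside the annotated probe sets, 21 of 3470 unnamed ones, which no comparison used, were at least 1.5-fold apart and beyond both other arrays in both groups, 13 lower and 8 higher, with differences from -2.12 to 1.12.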

How the results depend on the processing

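None of the 82 called genes named by the rule changed direction. A call already requires the same direction in both groups, so leaving out an array could not reverse it. Outside that set the sign differed between the groups for YRA1, HIS3, SPO19, LSO1 and ICL1, so their mean differences have no common direction. The number of probe sets called for replicate 2 was 301 both after a further quantile normalisation, with 287 shared, and with equal array medians, with 298 shared. At least 2-fold it was 59 (30 higher and 29 lower). In the GAL-YRA1Δi arrays alone, which is the same as leaving out GAL-YRA1 replicate 2, 262 were called lower and 189 higher, while in the GAL-YRA1 arrays alone 137 were called lower and 190 higher, so the balance of directions turned between the groups. Leaving out single arrays gave 294 to 451 calls, 144 to 190 higher and 137 to 262 lower. For the 82 called genes named by the rule, 802 of 984 alternative values stayed within the spread and 182 did not.

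The interaction passed for 2 probe sets, for 1 after a further quantile normalisation or with all probe sets of the table, for 33 with the replicate block and for 8 with an intensity trend and robust variances. It passed for 2 to 86 with single arrays left out, and could not be fitted without either replicate 2 array. The strict group count of 51 was 0 with all probe sets, with the replicate block and with group alone, 87 with the trend and robust variances, and 0 to 89 with single arrays left out. The looser count of 136 was 84 with all probe sets, 79 with the replicate block, 22 with group alone and 15 to 231 with single arrays left out. The cause of these shifts was not tested. Signal limits what can be said of probe sets below 4.70, such as BAR1 or LSO1 in GAL-YRA1, or just above it, such as SPO19 in GAL-YRA1, and of those near 15.12.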
